A study of Mus musculus with 48 samples.

Results

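Hpca, Ppp1r1a, Itm2c, Epha7, Wipf3, Prrt2, Ncdn and Nsg1 are 8 of the 15782 genes measured by digital spatial profiling (DSP) in the mouse brain after spaceflight. They were selected on the readout itself, because their levels in FLT-SAL mice lay above those in GC-SAL mice in more than 1 brain region. DSP hybridizes tagged probes to a tissue section and counts the tags that UV light releases from a chosen area of illumination (AOI). The 4 AOIs of each mouse were the CA field of the hippocampus (CA), the dentate gyrus (DG), the frontal cortex (FCT) and a second cortical area (CT), which gave 48 AOIs from 12 mice. All were C57BL/6 males, 10 weeks old, that spent 35 days in orbit (FLT) or in ground control cages (GC). They received either saline (SAL) or BuOE, a manganese porphyrin that mimics superoxide dismutase, at 1 mg/kg in 0.2 mL under the skin, once a week from 7 days ahead of launch. The flight mice were brought to the laboratory no later than 20 h after landing, and fixed left hemispheres were sectioned. The groups were GC-SAL, FLT-SAL, GC-BuOE and FLT-BuOE, with 3 mice each. Each group had its own slide, 4 in all, so slide and group cannot be told apart in any comparison between groups, and p-values measure the spread between mice only.

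The proteins of these genes work at several points of a neuron. Hpca (hippocalcin) and Ppp1r1a (inhibitor-1 of protein phosphatase 1) belong to the signaling that follows calcium and cyclic AMP at excitatory synapses. Epha7 is a receptor for ephrins on neighbouring cells, and Wipf3 belongs to the family of proteins that bind WASP and steer actin assembly. Prrt2 acts at the presynaptic release machinery, Nsg1 travels with endosomes that recycle AMPA receptors, Ncdn (neurochondrin) binds CaMKII and is found in dendrites, and Itm2c is a membrane protein with a BRICHOS domain that is cleaved by furin. Hippocampal pyramidal cells and dentate granule cells, whose bodies are packed into dense layers, are the main neurons of the CA and DG areas.

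Deduplicated reads per AOI ran from 322629 to 1579380, with the highest counts on the FLT-SAL slide (603927 to 1579380). Values are Q3-normalized counts, in which every AOI has the same upper quartile of 40.02. Levels of 1 gene are set side by side across regions on this scale, which does not remove background. Negative-control probes, which match no transcript, gave 9.24 to 20.9 on this scale. These probes gave 16.1 to 20.9 in CA and 9.24 to 13.5 in DG, so background weighed differently in the 2 areas. The 8 genes lay above them in every AOI, with the lowest ratio, 1.51, for Wipf3 and the highest, 69.9, for Ncdn. Raw counts of the 8 genes ran from 19 (Epha7) to 1175 (Ncdn) per AOI. The labelled regions matched their markers: the sum of 5 markers of CA1 pyramidal cells was 368 to 588 in CA and 111 to 276 elsewhere, and that of 6 markers of dentate granule cells was 319 to 447 in DG and 107 to 182 elsewhere. AOIs to be read with care were that of GC-SAL mouse 1 in CT, with 140 nuclei, and that of GC-BuOE mouse 3 in DG, with a sequencing saturation of 81.7%. In bulk AOIs, fewer cells of a type and less RNA per cell cannot be told apart.

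In GENCODE on GRCm38, 3 of the 8 genes are on chromosome 4: Epha7 from 28813131 to 28967499 on the plus strand, and on the minus strand Ncdn from 126743750 to 126753438 and Hpca from 129111570 to 129122036. Itm2c is on chromosome 1 (85894281 to 85908675), Nsg1 on chromosome 5 (38137192 to 38159907), Wipf3 on chromosome 6 (54429603 to 54503768), Prrt2 on chromosome 7 (127017531 to 127021211) and Ppp1r1a on chromosome 15 (103530279 to 103538003). RefSeq promoter windows on GRCm38.p6 were at hand for 5 of the 8, namely Hpca, Itm2c, Epha7, Wipf3 and Ncdn. That of Epha7 is shown because it was the only one with a long stretch before the start of the gene that touched no annotated exon. It lies at chr4:28812881-28813065 on the plus strand, with capitals for a CCAAT box (on the minus strand) and a GC box (on the minus strand).
Epha7: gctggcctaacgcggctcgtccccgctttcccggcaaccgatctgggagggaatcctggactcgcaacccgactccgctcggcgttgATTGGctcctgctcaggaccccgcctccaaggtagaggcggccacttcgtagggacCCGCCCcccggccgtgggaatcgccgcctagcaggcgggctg
Of its 185 bases, 69.7% are G or C. Within 250 bases before a start, on either strand, a GC box (GGGCGG) was present in Hpca, Epha7, Wipf3 and Ncdn, 4 of these 5 genes, and in 32.7% of all 32851 windows. A CCAAT box (CCAAT) was present in Epha7 and Ncdn and in 33.8% of windows, an E-box (CACGTG) in Hpca and in 6.02% of windows, and the core of a cyclic AMP response element (TGACG) in Itm2c and in 17.8% of windows. The TATA box (TATAAA, 12.4% of windows) and the AP-1 site (TGANTCA, 6.75% of windows) were found in 0 of the 5 genes. Hpca and Ncdn have 3 windows each and Epha7 has 2, while the shares are per window, and some windows overlap each other.

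The values that selected the genes came from FLT-SAL against GC-SAL and are given as a description, without a test. Counts past the thresholds and adjusted p in this contrast only place the 8 genes against the selection. The selection largely set them, so they are no evidence of a flight effect. In CA, all 3 FLT-SAL mice lay above all 3 GC-SAL mice for each of the 8 genes, and so they did in DG. Across all genes, 7.55% had this order in CA and 7.39% in DG. In FCT it held for Wipf3, Ncdn and Nsg1 (7.41% of all genes) and in CT for Wipf3 (5.14%). The limma fit on log2(Q3-normalized count + 1), calls a gene when its adjusted p is under 0.05 and its change exceeds 1.5-fold. It placed 6 of the 8 past both thresholds in CA, where 0.127% of all genes were called higher, and 7 in DG, where 0.247% were. In FCT it placed 1 (0.0317% of all genes), and 0 in CT (0.0634%). Hpca, Ppp1r1a, Itm2c, Epha7, Wipf3 and Prrt2 passed in both CA and DG. Ncdn passed in DG alone and Nsg1 in FCT alone, so that these are higher in several regions by the order of the mice but not by the thresholds of this fit. The count in CA was 8 by edgeR on the recovered counts and 8 with the replicate block, 1 after quantile normalization and 2 when GC-SAL mouse 1 or mouse 3 was left out. Leaving out FLT-SAL mouse 3 gave 1, and leaving out FLT-SAL mouse 1 or mouse 2 gave 0. The count in DG was 3 after quantile normalization and 2 without GC-SAL mouse 3, and Nsg1 left the FCT count without any one of GC-SAL mouse 1, GC-SAL mouse 3, FLT-SAL mouse 2 and FLT-SAL mouse 3, and by DESeq2. Just outside in CA were Ncdn (log2 fold change 0.61, adjusted p of the rule's contrast 0.054, limma) and Nsg1 (0.73 and 0.064, limma), and just inside were Ppp1r1a (0.79 and 0.042, limma) and Wipf3 (0.71 and 0.044, limma). The other genes past the thresholds in 2 or more regions were Arc, Mt1, Ptgds, Rbm3 and Sgk1.

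Hpca, the calcium sensor, had Q3-normalized counts in CA of 471, 555 and 402 in GC-SAL mice, 864, 886 and 772 in FLT-SAL mice, 482, 616 and 403 in GC-BuOE mice, and 587, 755 and 576 in FLT-BuOE mice. Each FLT-SAL mouse was above the other 9 mice, and the BuOE groups overlapped. In DG the values were 279, 289 and 194 (GC-SAL), 392, 432 and 406 (FLT-SAL), 272, 278 and 276 (GC-BuOE), and 290, 370 and 283 (FLT-BuOE). FLT-SAL was again the highest group here, and FLT-BuOE lay above GC-BuOE without overlap. In the cortex the order was another one. In FCT the values were 84.3, 90.2 and 88.3 in GC-SAL, 86.3, 104 and 123 in FLT-SAL, 122, 119 and 88.2 in GC-BuOE, and 183, 181 and 158 in FLT-BuOE, and in CT they were 149, 187 and 115, then 147, 152 and 168, then 128, 164 and 132, and then 223, 213 and 193 in the same groups. FLT-BuOE was the highest group in both cortical areas, while FLT-SAL and GC-SAL overlapped.

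Ppp1r1a, whose product inhibits protein phosphatase 1 when protein kinase A phosphorylates it, was 87.7, 111 and 48.9 in GC-SAL and 141, 133 and 132 in FLT-SAL in CA, and 80.0, 102 and 86.0 against 124, 128 and 157 in DG. The third GC-SAL mouse in CA, at 48.9, was well below the other two, and without it the log2 fold change of 0.79 became 0.45. In BuOE mice it was 75.8, 81.4 and 81.1 on the ground and 92.5, 91.9 and 88.7 in flight in CA, and 101, 93.8 and 93.4 against 103, 116 and 115 in DG, so that flight mice lay above ground mice in both hippocampal areas. In FCT and CT flight and ground mice of the same treatment overlapped, and all values lay within 37.7 to 68.0. The FLT-BuOE mice of CT (48.5 to 55.6) lay just below its GC-SAL mice (55.8 to 68.0).

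Epha7 was 63.1, 76.2 and 48.9 in GC-SAL and 133, 104 and 104 in FLT-SAL in CA. In DG, its region of highest level, it was 102, 116 and 85.0 against 180, 164 and 176. BuOE mice overlapped in both, at 82.2, 74.7 and 59.5 (GC-BuOE) and 77.3, 97.8 and 78.3 (FLT-BuOE) in CA, and 103, 131 and 106 against 110, 160 and 148 in DG. In the cortex its levels ran from 27.2 to 55.5 in the 24 AOIs, close to the upper quartile of all genes, and the groups overlapped. Wipf3, the actin regulator, was 87.7, 137 and 108 in GC-SAL and 178, 202 and 159 in FLT-SAL in CA, and 81.4, 124 and 85.0 against 156, 138 and 179 in DG. Of the 8, only Wipf3 had saline groups without overlap in all 4 regions, with 34.8, 35.3 and 35.3 against 36.0, 50.7 and 47.7 in FCT, and 27.9, 36.2 and 41.9 against 60.4, 59.5 and 53.4 in CT. The log2 fold change in CT was 0.71, and 0.55 without the GC-SAL mouse of 140 nuclei. Beside it, the sum of 7 oligodendrocyte markers in CT was 699 to 769 in GC-SAL and 1269 to 1786 in FLT-SAL, with 4 of the 7 called, and the part of these cells in the difference was not tested. Among BuOE mice its groups overlapped in all regions, and in DG flight mice, at 60.0, 100 and 125, had a lower mean than ground mice, at 106, 118 and 132.

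Prrt2, of the presynaptic terminal, was 73.9, 93.4 and 104 in GC-SAL and 164, 154 and 165 in FLT-SAL in CA, and 126, 181 and 121 against 231, 240 and 224 in DG. BuOE mice had 105, 108 and 93.0 on the ground and 127, 157 and 118 in flight in CA, 153, 148 and 139 against 187, 233 and 175 in DG, 125, 155 and 147 against 162, 167 and 203 in FCT, and 142, 159 and 152 against 168, 225 and 145 in CT. Flight mice were above ground mice without overlap in CA, DG and FCT, and in CT 1 flight mouse fell within the ground range. Nsg1, the endosomal protein, was 64.7, 85.8 and 56.3 in GC-SAL and 109, 116 and 115 in FLT-SAL in CA. Its largest difference was in FCT, with 46.3, 67.5 and 47.1 against 82.9, 86.5 and 114, where the BuOE groups had 84.4, 73.4 and 79.1 on the ground and 95.8, 95.2 and 91.3 in flight. The 3 GC-SAL mice were thus the lowest group of FCT, below all GC-BuOE mice as well. Beside the Nsg1 difference in FCT, the 7 oligodendrocyte markers summed to 986 to 1165 in GC-SAL and 1198 to 1890 in FLT-SAL, the 6 GABAergic markers to 236 to 264 against 276 to 347, and the 12 neuronal markers to 1882 to 1984 against 1995 to 2364, each without overlap and with 0 genes called. Their part in the difference was not tested.

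Ncdn, the partner of CaMKII, was 212, 320 and 243 in GC-SAL and 417, 384 and 373 in FLT-SAL in CA, and 345, 435 and 383 against 670, 611 and 680 in DG. With BuOE the groups overlapped in both, at 276, 347 and 250 (GC-BuOE) and 315, 353 and 278 (FLT-BuOE) in CA, and 388, 434 and 474 against 369, 574 and 475 in DG. In FCT it was 134, 133 and 141 in GC-SAL, the lowest group, 163, 205 and 201 in FLT-SAL, 200, 162 and 169 in GC-BuOE, and 203, 223 and 219 in FLT-BuOE. Itm2c, the BRICHOS protein, was 75.4, 62.9 and 66.7 in GC-SAL and 133, 128 and 100 in FLT-SAL in CA, and 41.4, 58.6 and 46.0 against 92.6, 96.2 and 87.9 in DG, where all FLT-SAL mice were above the other 9. In DG the BuOE groups overlapped, at 62.3, 42.5 and 58.9 on the ground and 56.7, 75.0 and 65.6 in flight.

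**Figure D1:**
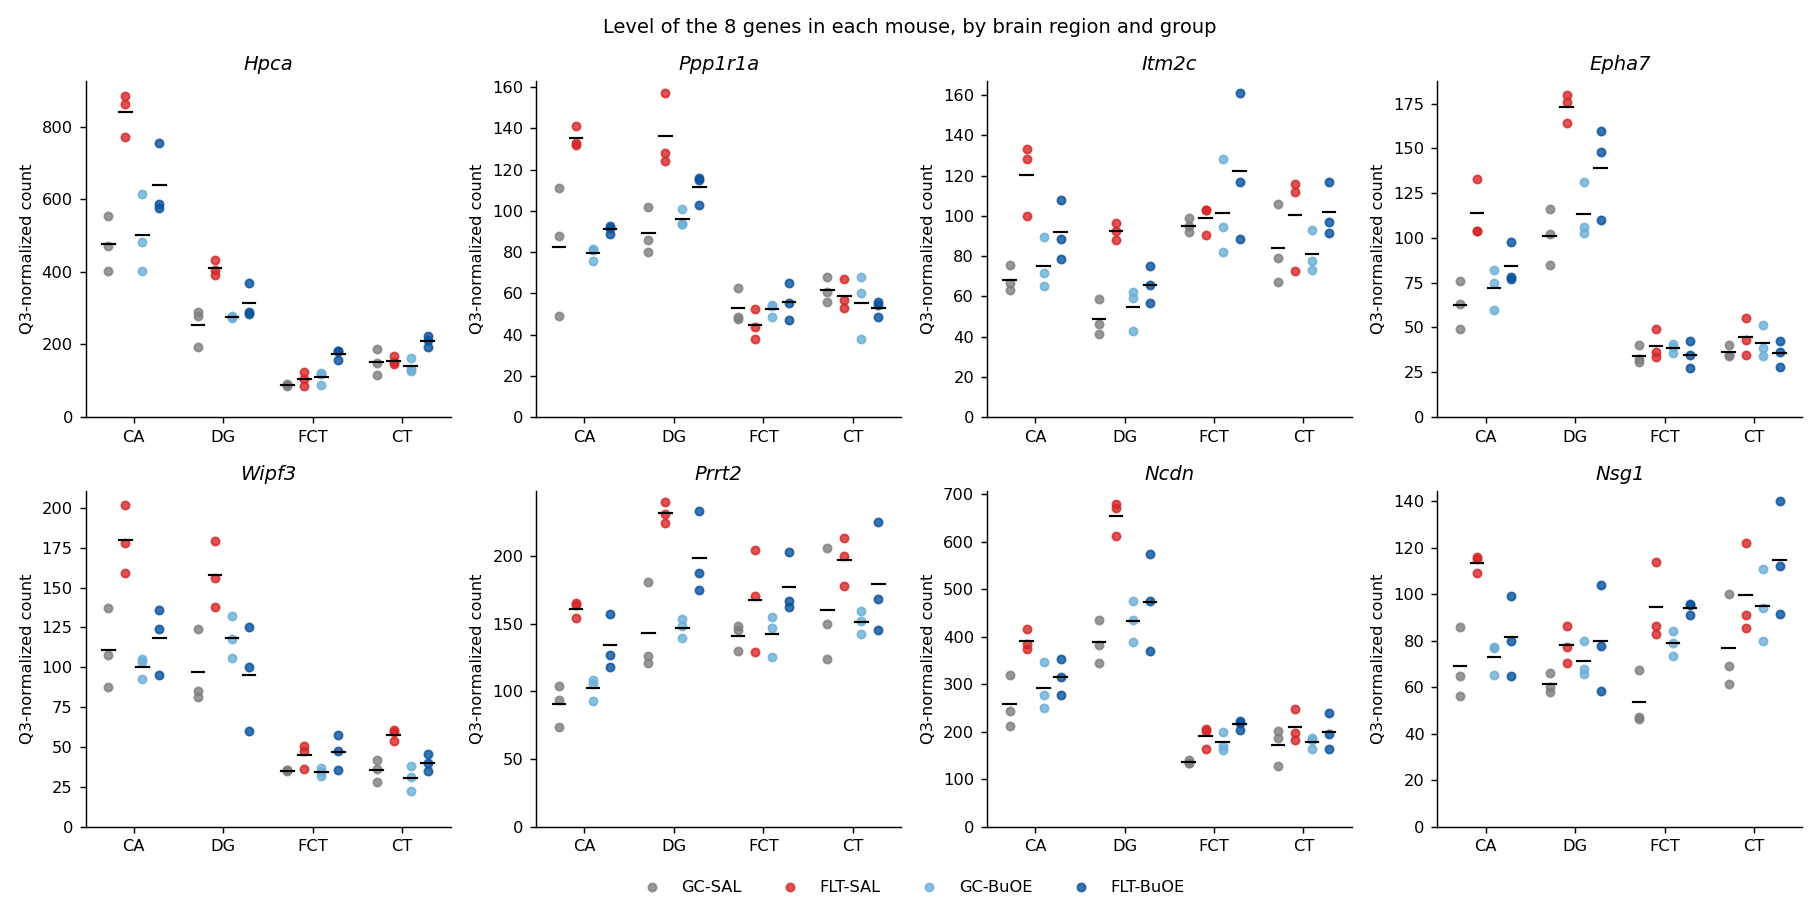
Q3-normalized count (vertical axis, linear from 0) of the 8 genes in CA, DG, FCT and CT, with 1 point per mouse and a bar at the mean of 3 mice, for GC-SAL, FLT-SAL, GC-BuOE and FLT-BuOE. FLT-SAL had the highest mean for all 8 genes in CA, 7 in DG, 4 in CT and 2 in FCT, counts that the choice of the genes in part sets.

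In CA the mean was highest in FLT-SAL for all 8 genes, and in 6 of them each FLT-SAL mouse was above the other 9 mice. In DG these counts were 7 and 6, in FCT 2 and 0, and in CT 4 and 1. The selection of the genes in part sets these counts, and the share of all genes with these orders was not computed. The median log2 fold change of the 8 genes in FLT-SAL against GC-SAL was 0.79 in CA (0.02 over all genes), 0.72 in DG (-0.01), 0.23 in FCT (0.03) and 0.28 in CT (0.01). Markers of neurons moved the same way in the hippocampus. The sum of 12 general neuronal markers was 1153 to 1243 in GC-SAL and 1483 to 1581 in FLT-SAL in CA, and 1223 to 1389 against 1514 to 1740 in DG, with 10 of the 12 higher in CA and 11 in DG and 0 called. The 5 markers of CA1 pyramidal cells summed in CA to 368 to 435 against 541 to 588, all 5 were higher and 1 of them, Wfs1, was called. The 6 markers of dentate granule cells summed in DG to 320 to 379 against 397 to 445, with 4 of them higher and 1, C1ql2, called. The 7 oligodendrocyte markers summed to 465 to 547 against 521 to 705 in CA and to 481 to 524 against 438 to 500 in DG, overlapping in both. Other lists were higher in FLT-SAL without overlap, with 0 of their genes called. The 6 markers of GABAergic interneurons summed to 175 to 196 against 205 to 231 in CA and to 184 to 208 against 224 to 269 in DG, the 6 of excitatory cortical neurons to 334 to 348 against 353 to 381 in CA (3 of the 6 higher, median log2 fold change -0.07), and the 7 of astrocytes to 343 to 385 against 414 to 458 in DG. Reads in CA were 370066 to 483270 in GC-SAL and 603927 to 948561 in FLT-SAL, while the nuclei were 285 to 321 and 300 to 335. In DG both measures were higher in FLT-SAL without overlap, with 496732 to 767199 against 965868 to 1372780 reads and 477 to 528 against 545 to 640 nuclei, and so they were in FCT, with 601288 to 897280 against 991160 to 1579380 reads and 400 to 472 against 568 to 602 nuclei. The part of cell content, depth, nuclei and slide in the differences was not tested.

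The BuOE groups were not used in the selection, so FLT-BuOE against GC-BuOE could be tested. It asks whether flight and ground mice differed in these genes under treatment. The fit shared its estimate of the spread among all 4 groups, so the saline mice of the selection enter the standard errors. With only the 2 BuOE groups in the fit, 0 of the 8 genes were called in CA or DG. None of the 8 genes was called in any region, in 32 tests, by limma (Benjamini-Hochberg adjusted over 15782 genes), nor by edgeR or DESeq2. Over all genes, CA had 0.0444% called here, DG 0.108%, FCT 0.019% and CT 0.0127%. An unadjusted p below 0.05 was reached in 8 of the 32 tests, 2 in each region, and by 1187 of all genes in CA, against 1301 (DG), 1131 (FCT) and 1049 (CT). The fold change was positive in 28 of the 32, namely for all 8 genes in CA, for 7 each in DG and FCT, and for 6 in CT. Over all genes, the median log2 fold change was -0.01 in CA and in DG, -0.04 in FCT and 0.00 in CT. The 32 values share mice and the 8 genes vary together, so they are not independent. In CA the upper quartile over the negative control was 2.13 to 2.48 in flight and 1.91 to 2.12 on the ground, and its part was not tested. All 3 flight mice lay above all 3 ground mice for 2 genes in CA (5.09% of all genes) and 3 in DG (5.16%), and likewise for 4 in FCT (3.71%) and 1 in CT (5.43%), and 0 genes had the reverse order. With 3 mice a side, the smallest two-sided p of an exact permutation test is 0.1, which these 10 reached.

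Hpca had the largest differences of the 8, in the cortex. In FCT it was 174 ± 14.2 (SD, n = 3) in flight and 110 ± 18.7 on the ground. In CT the means were 210 ± 15.4 and 141 ± 19.9. These are log2 differences of 0.67 and 0.58, each with a standard error of 0.16. The adjusted p was 0.14 in FCT and 0.30 in CT (limma), and flight mice were higher in 3 of 3 in both. Beside these, the AOI area was 145393 in flight and 163177 to 173293 on the ground in FCT, and 144580 against 208860 in CT. Nuclei in CT were 416 to 448 against 470 to 570, and they overlapped in FCT. In FCT the upper quartile over the negative control was 3.09 to 3.32 against 2.77 to 3.05. The part of these measures in the differences was not tested. Prrt2 had its largest difference in DG, at 198 ± 30.6 against 147 ± 7.27, or 0.42 ± 0.13 (standard error) on the log2 scale (adjusted p = 0.25, limma). Without the GC-BuOE mouse of low saturation this was 0.38 (adjusted p = 0.51, limma). Wipf3 in DG had the most negative value, -0.37 with a standard error of 0.17 (adjusted p = 0.53, limma), and -0.29 without that mouse. It was -0.08 without FLT-BuOE mouse 1, the mouse at 60.0, and -0.60 without FLT-BuOE mouse 3 (adjusted p of 0.16 to 0.94 over all alternatives, limma). The other negative values were -0.16 for Epha7 in FCT, -0.21 for Epha7 in CT and -0.03 for Ppp1r1a in CT.

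**Figure D2:**
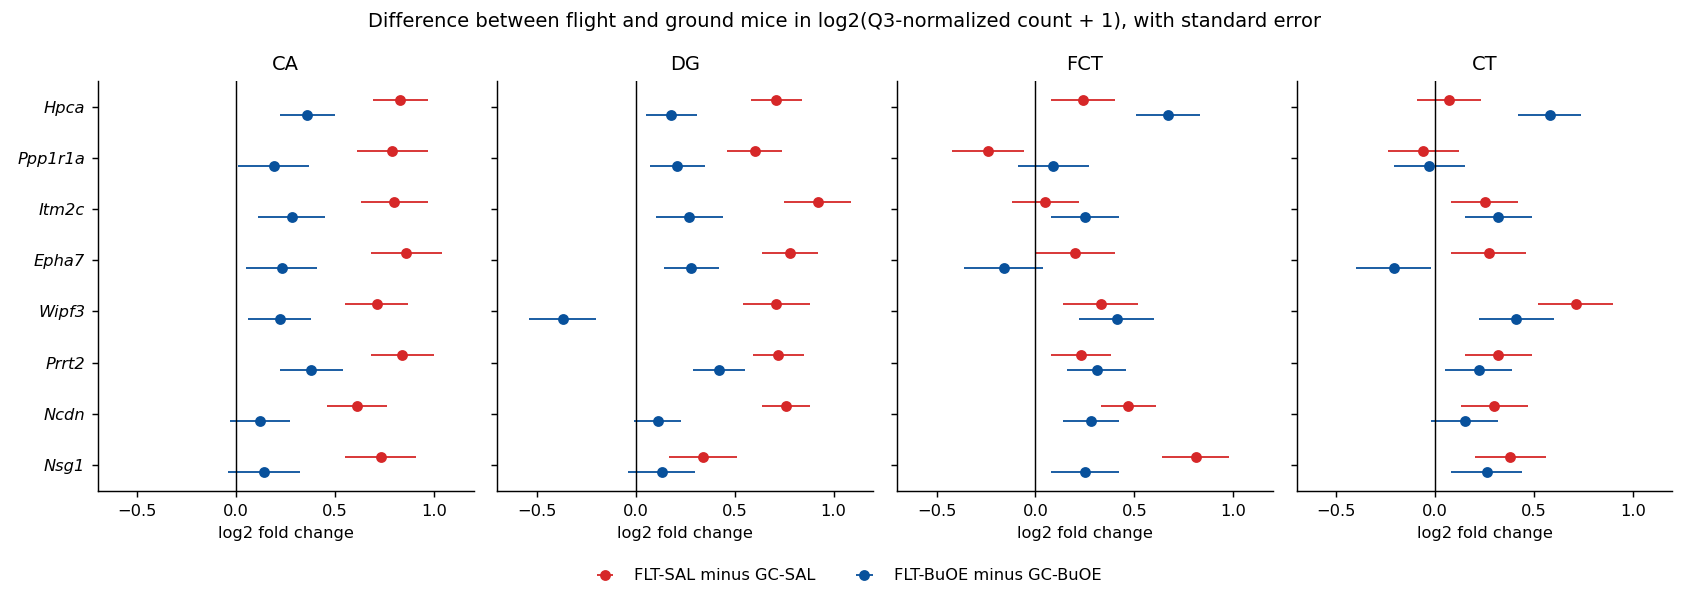
Log2 fold change (horizontal axis, difference of mean log2(Q3-normalized count + 1), bars for the standard error of the limma fit) of the 8 genes in each region, for FLT-SAL minus GC-SAL, which selected the genes, and FLT-BuOE minus GC-BuOE. In CA and DG the saline values lie between 0.34 and 0.92 and those under BuOE between -0.37 and 0.42.

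Side by side, the median log2 fold change of the 8 genes between flight and ground was 0.79 with saline and 0.23 with BuOE in CA, and 0.72 and 0.20 in DG. The cortex gave 0.23 and 0.27 in FCT, and 0.28 and 0.24 in CT. The genes were chosen for high saline values, so the 2 sets of values were not tested against each other. The comparisons that share the selected mice are given as values alone. FLT-BuOE minus FLT-SAL had a median of -0.41 in CA (-0.61 to -0.27), -0.36 in DG (-0.78 to 0.00), 0.14 in FCT (-0.19 to 0.74) and -0.11 in CT (-0.52 to 0.43). GC-BuOE minus GC-SAL had a median of 0.12 in CA, 0.16 in DG, and 0.12 and -0.04 in the cortical areas FCT and CT. Hpca had the largest value of FLT-BuOE minus FLT-SAL in FCT, 0.74, and in CT, 0.43, against -0.40 in CA and -0.39 in DG. Wipf3 had the lowest in DG, -0.78, and in CA, -0.61.

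Averaged over the 4 regions, with all 48 AOIs in 1 fit and the mouse as a random block, 2 of the 8 genes were higher in FLT-BuOE than in GC-BuOE at an adjusted p below 0.05, Hpca and Prrt2, and 0.291% of all genes were higher at this threshold. The correlation within a mouse was estimated at 0.0255 over all genes, so this fit took the 4 AOIs of a mouse as nearly independent. Hpca rose by 0.45 on the log2 scale (standard error 0.08, 1.36-fold, adjusted p = 8.5e-05, limma), with mean log2 levels of 8.18, 8.34 and 8.06 in flight mice and 7.74, 7.92 and 7.58 in ground mice. Prrt2 rose by 0.33 (standard error 0.08, 1.26-fold, adjusted p = 0.021, limma), with 7.32, 7.60 and 7.30 against 7.04, 7.15 and 7.04. Both changes are below the 1.5-fold threshold, which with the adjusted p is met by 0.0887% of all genes. With 1 value per mouse in place of 4 AOIs, an alternative chosen after seeing the data, the adjusted p was 0.027 for Hpca and 0.18 for Prrt2 (limma). For Hpca and Prrt2 alone among the 8, all 3 flight mice were above all 3 ground mice, and an exact permutation test gave its smallest two-sided p, 0.1. The share of all genes with this order was 3.71% to 5.43% within single regions and was not computed for these means. The Prrt2 call was lost without GC-BuOE mouse 1 (0.31, adjusted p = 0.11, limma), GC-BuOE mouse 3 (0.32, adjusted p = 0.16, limma) or FLT-BuOE mouse 2 (0.24, adjusted p = 0.3, limma), and that of Hpca was kept without any one mouse (largest adjusted p = 0.031, limma). Itm2c was higher by 0.28 on the log2 scale with a standard error of 0.09 (adjusted p = 0.17, limma), and by 0.39 without FLT-BuOE mouse 1 (adjusted p = 0.029, limma), while the other 5 genes had 0.03 to 0.19 with adjusted p of 0.44 to 0.95 (limma). The 12 neuronal markers beside these values summed in CA to 1350 to 1414 with flight and 1147 to 1303 on the ground, without overlap, and overlapped in DG, FCT and CT. The 7 oligodendrocyte markers were higher with flight in DG (501 to 714 against 409 to 469) and lower in CT (634 to 785 against 810 to 994), and the 6 GABAergic markers were lower in CT (230 to 285 against 287 to 311), each without overlap and with 0 genes called. Their part in the differences was not tested.

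**Figure D3:**
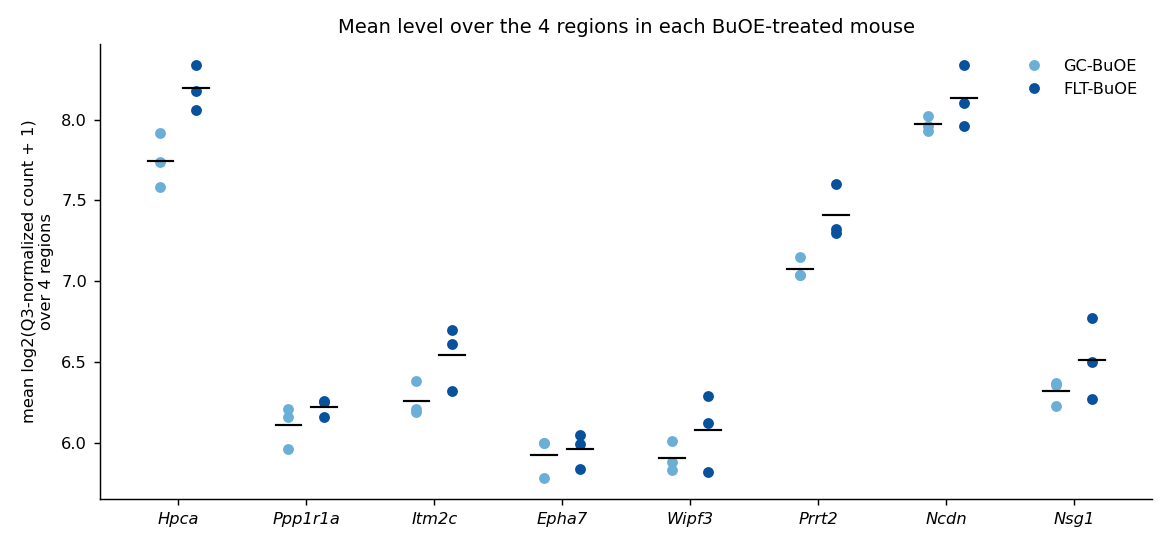
Mean log2(Q3-normalized count + 1) over the 4 regions (vertical axis) of the 8 genes in each BuOE-treated mouse, with 1 point per mouse and a bar at the mean of 3 mice. The 3 FLT-BuOE mice are above the 3 GC-BuOE mice for Hpca (8.06 to 8.34 against 7.58 to 7.92) and Prrt2 (7.30 to 7.60 against 7.04 to 7.15), and the groups overlap for the other 6 genes. The share of all genes with this order was not computed for these means.

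The change under BuOE did not differ between regions at an adjusted p below 0.05 for any of the 8 genes (limma, F test over 3 differences), and it did for 0.00634% of all genes. Wipf3 had the smallest value, with a raw p of 0.0096 and an adjusted p of 0.55 (limma), its log2 fold change being -0.37 in DG, or -0.08 without FLT-BuOE mouse 1, and 0.22 to 0.41 in the other regions. A missed threshold does not show that the regions acted alike.

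The region of highest level was read in the 6 BuOE mice, outside the selection. Levels differed among the 4 regions for all 8 genes (largest adjusted p = 0.0077, for Nsg1, limma F test with the mouse as a random block), as for 18.2% of all genes. By mean level, the genes fell into those highest in the hippocampus (Hpca, Ppp1r1a, Epha7, Wipf3, Ncdn), those highest in the cortex (Itm2c, Nsg1) and Prrt2, which was lowest in CA. Differences between CA and another region lost the threshold in some settings for Itm2c, Epha7, Prrt2, Ncdn and Nsg1, with values given below. The pair of CA and DG differed in 5 of the 8 (10.8% of all genes). FCT differed from CA in 7 (10.7%) and from DG in 6 (10.5%), CT differed from either in 7 (9.99% for CA, 12.3% for DG), and the 2 cortical areas differed in 0 (0.019%).

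Hpca was most abundant in CA, at 570 ± 120 (SD, n = 6 mice), then DG at 295 ± 37.4, CT at 176 ± 40.9 and FCT at 142 ± 38.2. CA was above DG by 0.93 on the log2 scale (standard error 0.10) and DG above CT by 0.77, both in 6 of 6 mice, while CT was above FCT by 0.32 (adjusted p = 0.59, limma), also in 6 of 6. With all 12 mice, which adds the saline mice of the selection, FCT minus CT for Hpca was -0.49 and passed the threshold (adjusted p = 1.9e-04, limma). Epha7 and Ncdn were highest in DG. Epha7 was 126 ± 23.9 in DG and 78.3 ± 12.4 in CA, a difference of 0.68 (standard error 0.14, adjusted p = 1.3e-04, limma), with 38.4 ± 8.08 in CT and 36.7 ± 5.52 in FCT. Ncdn was 452 ± 73.9 in DG, 303 ± 41.7 in CA, 196 ± 25.4 in FCT and 188 ± 28.4 in CT, and DG was above CA by 0.57 (standard error 0.10, adjusted p = 1.0e-05, limma). After background subtraction both lost the threshold. CA minus DG was then -0.52 for Epha7 (adjusted p = 0.081, limma) and -0.19 for Ncdn (adjusted p = 0.25, limma). For both genes CA was above either cortical area in 6 of 6 mice.

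Ppp1r1a and Wipf3 had levels in CA and DG that could not be separated. Ppp1r1a was 104 ± 9.87 in DG and 85.2 ± 6.77 in CA, a difference of 0.28 (standard error 0.12, adjusted p = 0.13, limma) in 6 of 6 mice, with 54.0 ± 6.30 in FCT and 54.0 ± 10.3 in CT. Wipf3 was 109 ± 17.1 in CA and 107 ± 25.7 in DG, with 40.5 ± 9.89 in FCT and 35.3 ± 8.05 in CT, and CA was above FCT by 1.43 and DG above FCT by 1.36 (standard error 0.15 each). Itm2c ran the other way, with 112 ± 29.9 in FCT, 91.5 ± 15.4 in CT, 83.6 ± 15.4 in CA and 60.2 ± 10.8 in DG. FCT was above DG by 0.87 and CA above DG by 0.47 (adjusted p = 0.0069, limma), whereas CT and CA were 0.13 apart (adjusted p = 0.60, limma). FCT was above CA by 0.40 (adjusted p = 0.027, limma). CA minus FCT was -0.16 after quantile normalization (adjusted p = 0.54, limma) and -0.26 after background subtraction (adjusted p = 0.34, limma). Its threshold was also missed with all 12 mice, and without GC-BuOE mouse 2, GC-BuOE mouse 3 or FLT-BuOE mouse 3. Nsg1 was 105 ± 21.1 in CT, above CA (77.3 ± 12.6, adjusted p = 0.012, limma) and DG (75.6 ± 16.0, adjusted p = 0.0037, limma), and FCT, at 86.5 ± 9.11, did not differ from its neighbours at this threshold. CA minus CT for Nsg1 was -0.21 after quantile normalization (adjusted p = 0.36, limma) and -0.36 after background subtraction (adjusted p = 0.13, limma). It was -0.20 with all 12 mice (adjusted p = 0.11, limma) and -0.41 without GC-BuOE mouse 3 (adjusted p = 0.056, limma). Prrt2 was 172 ± 34.4 in DG, 165 ± 30.6 in CT and 160 ± 25.5 in FCT, which were not separated, and 118 ± 22.3 in CA, below FCT by 0.44 (standard error 0.11, adjusted p = 0.0017, limma). CA minus FCT for Prrt2 was -0.13 after quantile normalization (adjusted p = 0.53, limma) and -0.24 after background subtraction (adjusted p = 0.19, limma). CA minus CT was -0.19 after quantile normalization (adjusted p = 0.29, limma), and CA minus DG was -0.26 after background subtraction (adjusted p = 0.13, limma).

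**Figure D4:**
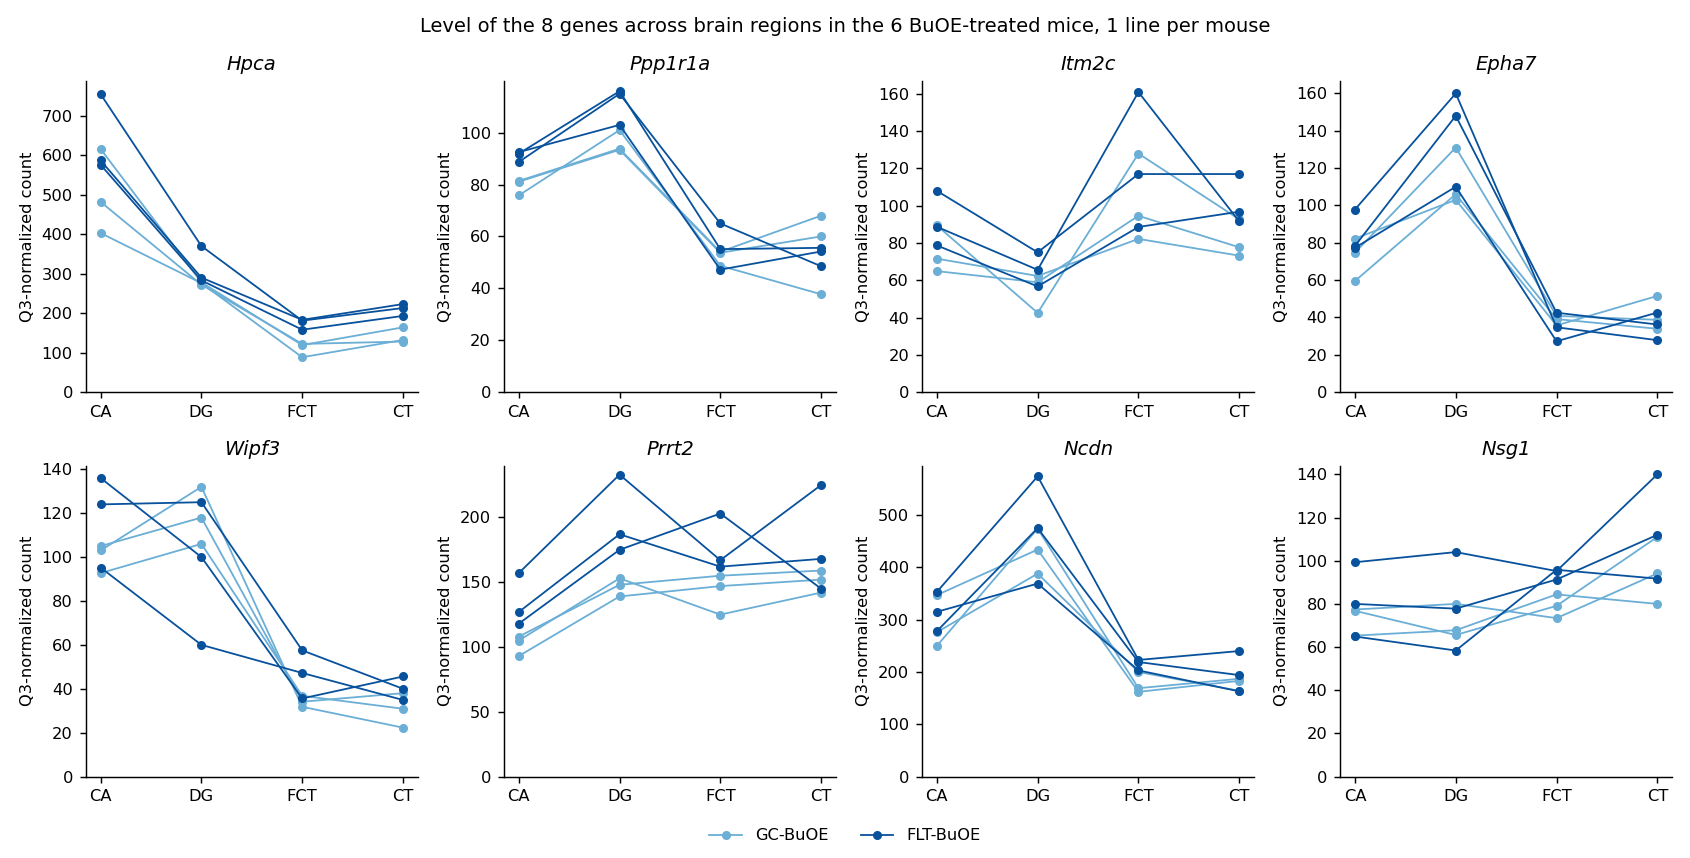
Q3-normalized count (vertical axis, linear from 0) of the 8 genes in CA, DG, FCT and CT, with 1 line for each of the 6 BuOE-treated mice (3 GC-BuOE, 3 FLT-BuOE). In all 6 mice Hpca was higher in CA than in DG, Epha7 and Ncdn were higher in DG than in CA, and Itm2c was lower in DG than in FCT.

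Genes related to the 8 by family or function were looked at as 8 lists of 94 genes in all, of which 88 were measured. The lists were chosen with earlier results of these data known. FLT-SAL against GC-SAL is also the contrast that selected the 8 genes, so calls in it are no independent evidence of a flight effect. In FLT-SAL against GC-SAL, 5 of the 88 were called higher in DG, where 0.247% of all genes were, and 0 in the other regions (limma), and 0 were called lower. Their median log2 fold change was 0.20 in CA (0.02 over all genes), 0.16 in DG (-0.01), 0.04 in FCT (0.03) and 0.09 in CT (0.01). After quantile normalization 0 were called in DG and 2 in CT. Among 8 relatives of hippocalcin, Ncald was called in DG, at 149, 142 and 133 in FLT-SAL and 86.9, 91.2 and 91.1 in GC-SAL (log2 fold change 0.65, adjusted p = 0.018, limma). Among 13 genes of protein phosphatase 1 and its control, Ppp3ca and Ppp3r1, the catalytic and regulatory subunits of calcineurin, which dephosphorylates inhibitor-1, were called in DG, with log2 fold changes of 0.60 (adjusted p = 0.019, limma) and 0.61 (adjusted p = 0.031, limma). Camk2b, a subunit of CaMKII, was the 1 call of 9 partners of neurochondrin, at 390, 366 and 369 against 219, 289 and 244 in DG (0.59, adjusted p = 0.017, limma). Gria3, an AMPA receptor subunit, was the 1 call of 9 genes of AMPA receptor traffic, at 99.3, 89.4 and 93.6 against 48.3, 56.8 and 63.0 in DG (0.74, adjusted p = 0.012, limma). In these 5 genes flight and ground mice did not overlap, an order that 7.39% of all genes had in DG.

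Of 6 BRICHOS and amyloid precursor relatives, 20 Eph receptors and ephrins, and 12 actin regulators of the WIP and WASP families, 0 were called in either comparison. The most abundant of each in FLT-SAL against GC-SAL in CA were App (log2 fold change 0.43) and Aplp1 (0.25), Epha4 (0.62, adjusted p = 0.11, limma) and Epha6 (-0.14), and Cyfip2 (0.43) and Nckap1 (0.36). All 12 actin regulators had positive values in CA, with a median of 0.35, and 0 passed the test. In FLT-BuOE against GC-BuOE, 1 of the 88 genes was called, in DG, where 0.108% of all genes were. Prrt1, a relative of Prrt2 found with AMPA receptors, was lower in flight in DG, at 170, 165 and 222 in GC-BuOE and 118, 95.1 and 113 in FLT-BuOE (log2 fold change -0.76, standard error 0.15, adjusted p = 0.012, limma), while Prrt2 had 0.42 there. The value of 222 is from the GC-BuOE mouse of low saturation. Without a call, Prrt1 was also lower in flight with BuOE in CA (-0.42), FCT (-0.46) and CT (-0.57). With saline it had -0.34 to -0.13 over the regions, also without a call.

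The genes with the most similar pattern over the 48 AOIs were named by Pearson's correlation of log2 levels, as a description. The AOIs share mice and slides, and differences between regions weigh heavily in it. Ncdn was closest to Camk2b (0.95) and Epha7 (0.92), Epha7 to Camk2b (0.93) and Ncdn (0.92), and Ppp1r1a to Camk2b (0.90) and Orai2 (0.89). Hpca was closest to Epha6 (0.93) and Iqgap2 (0.92), Wipf3 to Gria1 (0.92) and Sipa1l3 (0.91), Itm2c to Gria3 (0.82) and Gpm6a (0.79), Prrt2 to Septin3 (0.79) and Gapdh (0.78), and Nsg1 to Atp1b1 (0.74) and Slc25a12 (0.72). After each gene was centred within its regions, the closest were Grin1 (0.87) and Nrgn (0.86) for Hpca, Camk2b and Orai2 (0.72 each) for Ppp1r1a, Prrt2 (0.83) and Actb (0.81) for Itm2c, Syt7 (0.66) and Camk2b (0.61) for Epha7, Actb (0.72) and Rsrp1 (0.70) for Wipf3, Itm2c (0.83) and Syp (0.81) for Prrt2, Atp1b1 (0.86) and Ppia (0.85) for Ncdn, and Ncdn (0.78) and Rtl8a (0.75) for Nsg1. Among the 28 pairs of the 8 genes, the correlation was -0.35 to 0.92 (median 0.21) before this centring and 0.37 to 0.83 (median 0.58) after it, which the choice of the genes in part sets.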

How the data were processed

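RNA was counted by GeoMx DSP in 48 AOIs of 12 mice. The authors processed reads with the GeoMx NGS Pipeline (version 2.3.4 in the file headers) and deposited raw counts of 20175 probes per AOI, deduplicated and not normalized. The authors also deposited, per region, the Q3-normalized signal of 15782 genes, which divides each AOI by its upper quartile. Their log2 fold changes, p-values and adjusted p-values for 12 comparisons were not used. Negative-control probes were kept out of the tests. Whole counts were recovered for 99.98% of the Q3-normalized values, within 0.02 of a count.

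Groups came from the sample labels. limma 3.58.1 (R 4.3.3) was fitted to log2(Q3-normalized count + 1) of the 12 AOIs of a region (8 residual degrees of freedom), letting the prior variance follow the mean. p-values were adjusted by Benjamini and Hochberg's method across all genes, and calls needed an adjusted p under 0.05 with a change above 1.5-fold. The averaged and regional fits took the mouse as a random block. Tests between regions used no fold threshold. In the averaged fit the 8 genes were read by the adjusted p alone, while calls counted over all genes also needed a 1.5-fold change. edgeR 4.0.16 and DESeq2 1.42.0 on counts, other pseudocounts (5 and 0.1), a filter at 1.5 times the negative control, quantile normalization, background subtraction, a replicate block and leaving out mice were alternatives. The fits were tested on simulated data. The 8 genes and all lists were chosen with earlier results of these data known. Named besides the 8 were listed genes that were called or, in lists without a call, the 2 most abundant, genes past the thresholds in 2 or more regions, and the 2 genes most correlated with each. Promoters are from RefSeq, coordinates from GENCODE (GRCm38).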

Additional observations from a re-analysis of the deposited data

How the results depend on the processing

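Of the 480 regional values of the 8 genes in FLT-BuOE against GC-BuOE under other settings, 472 kept direction and side of the threshold, and 0 of the 8 genes were called in any region under any of them. The cause of each change below was not tested. Over all genes, calls in CA (7) became 20 with edgeR, 1 with DESeq2, 11 with a pseudocount of 5, 14 after background subtraction and 15 with the replicate block. Calls in DG (17) became 11 with DESeq2 and 28 with the replicate block, those in FCT (3) 1 with DESeq2, and those in CT (2) 5 with edgeR and 7 after quantile normalization. With the replicate block, 0 of the 8 genes were called in FLT-BuOE against GC-BuOE, as without it, and 8 in place of 6 passed in FLT-SAL against GC-SAL in CA. The numbers only name mice (24 same-numbered pairs correlated at -0.18 to 0.06), and for the averaged contrast mouse as a fixed factor was not run. Leaving out 1 mouse gave 1 to 12 calls in CA, 6 to 19 in DG, 2 to 6 in FCT and 1 to 2 in CT, with 0 of the 8 genes each time.

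Averaged over regions, 14 genes passed both the adjusted p and the 1.5-fold threshold, with Hpca and Prrt2 not among them. This count became 6 with a pseudocount of 5 and 37 after background subtraction (13 to 27 without 1 mouse). By the adjusted p alone, 2 of the 8 genes became 1 with 1 value per mouse (1 to 3 without 1 mouse). Prrt2 was then 0.33 (adjusted p = 0.18, limma), and 0.24 to 0.39 without 1 mouse, with Hpca at 0.36 to 0.53. Flight by region gave 12 genes after background subtraction and 1 to 5 without 1 mouse, 0 of them among the 8. Regions gave 5172 genes with all 12 mice, 3003 with the mouse as a fixed replicate block and 2245 to 2660 without 1 mouse, with 7 to 8 of the 8 genes in the last, 6 after quantile normalization and 7 after background subtraction. Related genes called in FLT-SAL against GC-SAL were, in CA, 2 with edgeR, 1 with DESeq2 and 2 after background subtraction, in DG 0 after quantile normalization, in FCT 2 with edgeR and 1 after background subtraction, and in CT 2 after quantile normalization.

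Values near 0 changed sign. In FLT-BuOE against GC-BuOE these were Ncdn in CA (-0.01 after background subtraction) and, over the fits without 1 mouse, Nsg1 in CA (-0.02 to 0.29), Ncdn in DG (-0.04 to 0.28), Nsg1 in DG (-0.07 to 0.34), Ppp1r1a in FCT (-0.03 to 0.20) and in CT (-0.27 to 0.14), and Epha7 averaged (-0.04 to 0.10, and -0.02 after background subtraction). Between regions, first minus second, these were Nsg1 for CA and FCT (0.05 after quantile normalization, 0.07 with all 12 mice), Itm2c for CA and CT (0.09 after quantile normalization), Prrt2 for DG and CT (-0.09 after background subtraction), Ppp1r1a for FCT and CT (-0.15 with all 12 mice), Ncdn for FCT and CT (-0.01 after background subtraction, -0.08 with all 12 mice) and, without 1 mouse, Wipf3 for CA and DG (-0.05 to 0.15) and Ppp1r1a (-0.07 to 0.08), Epha7 (-0.13 to 0.06) and Prrt2 (-0.15 to 0.03) for FCT and CT.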
